A study of Mus musculus with 60 samples.

Results

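The proteasome genes were taken as every entry of the 4 deposited expression tables whose symbol reads Psma, Psmb, Psmc, Psmd, Psme, Psmf or Psmg followed by a number. The rule found 48 of 55413 gene symbols. By role they were 7 alpha ring genes of the core particle (Psma1 to Psma7), 4 beta ring genes without catalytic activity (Psmb1 to Psmb4), 3 constitutive catalytic beta genes (Psmb5, Psmb6 and Psmb7) and 3 immunoproteasome catalytic beta genes (Psmb8, Psmb9 and Psmb10). A further 2 core genes belong to restricted tissues, Psma8 to testis and Psmb11 to thymus. The 19S regulatory particle gave 6 base ATPases (Psmc1 to Psmc6), 3 other base subunits (Psmd1, Psmd2 and Psmd4) and 8 lid subunits. The remaining members were 3 chaperones of base assembly (Psmd5, Psmd9 and Psmd10), 4 chaperones of core assembly (Psmg1 to Psmg4), the PA28 pair Psme1 and Psme2, the 2 other activators Psme3 and Psme4, and the inhibitor Psmf1.

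The proteasome degrades proteins tagged with ubiquitin. Its 20S core is a barrel of alpha and beta rings with the cutting sites inside the beta rings, and the 19S particle recognises, deubiquitinates, unfolds and threads the substrate. Interferon gamma is known to induce the alternative catalytic subunits Psmb8 (LMP7), Psmb9 (LMP2) and Psmb10 (MECL-1), which take the places of Psmb5, Psmb6 and Psmb7 and make the immunoproteasome, a source of peptides for MHC class I. PA28, built of Psme1 (alpha) and Psme2 (beta), is an interferon-inducible cap that opens the core without ATP. Microglia, the resident macrophages of the brain, are known to carry immunoproteasome subunits and to raise them in inflammation.

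All libraries came from mice of the genotype Spp1-CreER:R26-Tdtomato after a neonatal stroke, the contralateral groups included. The Spp1 promoter drives an inducible recombinase, so that a Tdt+ cell carries a lasting red label of past Spp1 (osteopontin) expression. About 2000 sorted microglia went into each library. At day 7 after the injury (postnatal day 13) there were 3 libraries each of Tdt+ microglia of the injured cortex, Tdt- microglia of the injured cortex and microglia of the contralateral cortex. After a lipopolysaccharide (LPS) challenge, a bacterial cell wall component whose dose and timing the labels do not give, there were 4 libraries of each of these groups at day 28 (postnatal day 34). The same groups had 4 libraries each at day 28 without LPS. A separate time course held Tdt+ microglia only, with 5 libraries each at day 3 (postnatal day 9), day 7 (postnatal day 13) and day 14 (postnatal day 20) and 4 at day 28 (postnatal day 34). The contralateral values used here come from the columns of Tdt- cells of that side. The comparisons ask how labelled cells differ from unlabelled and contralateral cells, whether LPS changes that difference, and how labelled cells change with time.

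The deposited values are TPM (transcript abundance corrected for transcript length and scaled to a fixed total per library), which keep no read depth, so the depth behind each value is unknown and no counting error can be given. The labels do not tie libraries to separate animals, and p-values measure the spread between these libraries, which may be technical. Microglial markers (10 genes, none at 0 in a group) summed to 17216 to 61100 TPM per library. Monocyte markers summed to 1.52 to 409.9 TPM, border macrophage markers to 4.09 to 286 TPM and B cell markers to 29.3 to 129 TPM, nearly all of the last from Cd79b. Neutrophil markers reached at most 151 TPM and erythroid markers 406 TPM, both at 0 in some libraries. T and NK cell markers stayed at or under 4.37 TPM, dendritic cell markers at or under 13.2 TPM, neuronal markers at or under 10.7 TPM, astrocyte markers at or under 17.4 TPM, endothelial markers at or under 37.4 TPM and oligodendrocyte markers at or under 63.3 TPM.

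Psmb8 and Psmb9 are neighbours on mouse chromosome 17 (GRCm38), on either side of Tap1, which encodes a subunit of the peptide transporter that feeds MHC class I. Psmb9 spans 34182030 to 34187330, Tap1 34187556 to 34197225 and Psmb8 34198195 to 34201454. Psme1 (55578494 to 55581527) and Psme2 (55587440 to 55591101) are neighbours on chromosome 14. The promoters of these 4 genes, from 250 bases before to 50 bases after the start, are shown because these genes are interferon-inducible neighbours. The sequences were taken from RefSeq (GRCm38.p6) and written 5′ to 3′ on the strand of the gene. Capitals mark a match to the interferon-stimulated response element (ISRE, GAAA, any 2 bases, GAAA) or the gamma-activated site (GAS, TTCNNNGAA), searched on both strands.
Psmb8, chr17:34197945-34198244, plus strand: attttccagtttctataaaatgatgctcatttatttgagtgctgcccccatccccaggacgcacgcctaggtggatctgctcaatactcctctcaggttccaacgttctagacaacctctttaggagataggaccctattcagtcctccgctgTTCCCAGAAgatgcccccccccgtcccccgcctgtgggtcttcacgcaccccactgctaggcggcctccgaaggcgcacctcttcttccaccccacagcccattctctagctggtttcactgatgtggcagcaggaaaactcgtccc
Psmb9, chr17:34187281-34187580, minus strand: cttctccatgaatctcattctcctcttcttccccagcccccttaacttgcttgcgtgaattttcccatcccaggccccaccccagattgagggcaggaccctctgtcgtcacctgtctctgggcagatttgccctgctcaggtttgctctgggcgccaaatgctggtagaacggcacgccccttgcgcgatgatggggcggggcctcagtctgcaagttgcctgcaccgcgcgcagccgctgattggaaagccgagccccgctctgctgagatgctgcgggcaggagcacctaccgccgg
Psme1, chr14:55578244-55578543, plus strand: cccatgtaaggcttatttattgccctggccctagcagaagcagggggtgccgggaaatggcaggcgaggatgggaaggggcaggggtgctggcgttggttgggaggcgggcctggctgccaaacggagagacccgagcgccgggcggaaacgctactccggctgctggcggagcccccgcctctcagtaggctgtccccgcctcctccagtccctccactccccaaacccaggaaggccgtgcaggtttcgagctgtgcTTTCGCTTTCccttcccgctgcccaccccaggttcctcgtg
Psme2, chr14:55591052-55591351, minus strand: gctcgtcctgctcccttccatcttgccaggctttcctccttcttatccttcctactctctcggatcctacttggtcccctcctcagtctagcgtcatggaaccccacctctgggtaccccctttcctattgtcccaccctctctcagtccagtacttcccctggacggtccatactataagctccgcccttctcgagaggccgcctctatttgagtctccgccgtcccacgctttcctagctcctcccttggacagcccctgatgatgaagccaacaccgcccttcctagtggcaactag

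The Psmb8 window held 1 GAS match, TTCCCAGAA, that begins at position -97 from the start. The Psme1 window held 1 ISRE match on the opposite strand, TTTCGCTTTC, that begins at position 9. The Psmb9 and Psme2 windows, and that of Psmb10 on chromosome 8, had no match to either letter pattern. Of the 43 promoters found for 40 members, 5 had an ISRE match (Psme1, Psmd4, Psmd9, Psmb3 and Psmg4), against 3.44% of all 32851 promoters in the table. A GAS match stood in 3 of the 43 (Psmb8, Psmd2 and Psmg1), against 8.30% of all. The letters TGACNNNGC, a core of the antioxidant response element bound by the proteasome gene regulator Nfe2l1, were in 6 of the 43 (Psmb5, Psmb6, Psmc6, Psmd9, Psmd12 and Psme4), against 12.4% of all. The NF-kB motif was in 2 of the 43 (Psma7 and Psmd12), against 6.93% of all. These matches describe letters in the windows and not binding.

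All members except Psmb11 passed the filter on low values in every table. Psmb11 was listed at 0 in most libraries and never exceeded 0.34 TPM. The members together took 0.568 to 0.669% of all TPM in the day 7 libraries, 0.622 to 0.837% in the LPS libraries, 0.616 to 0.676% in the day 28 libraries and 0.357 to 0.491% in the time course. On the length-corrected TPM scale, levels differed widely within a particle whose subunits are assembled in equal numbers. The 4 tables were deposited separately and did not all give the same order, so the following averages over the 52 libraries rank these libraries as a whole. The alpha ring ran from 83.5 TPM for Psma2 to 326 TPM for Psma1, and the non-catalytic beta genes from 139 TPM for Psmb4 to 210.2 TPM for Psmb2. The ATPases ran from 81.6 TPM for Psmc6 to 164 TPM for Psmc3, and the lid from 58.8 TPM for Psmd3 to 166 TPM for Psmd8. By table, Psma3 was the highest alpha gene in the LPS and day 28 tables, Psma4 was the lowest at day 7 and day 28, and Psmb3 was the highest non-catalytic beta gene after LPS and in the time course. Psmb1 was the lowest of these beta genes after LPS, where Psmc5 and Psmd6 were the highest of the ATPases and the lid, and Psmc1 was the lowest ATPase in the time course. Psmd3 was the lowest lid gene in all 4 tables. Assembly factors were lower, with Psmd5 at 22.5 TPM and Psmd10 at 33.7 TPM among the base chaperones and Psmg1 at 29.3 TPM and Psmg2 at 57.6 TPM among the core chaperones. The alternative caps Psme3 (9.95 TPM) and Psme4 (11.1 TPM), which bind the core in place of 19S or PA28, stood far below Psme1 (286 TPM) and Psme2 (233 TPM).

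The immunoproteasome genes were well expressed in every group, LPS or not. Psmb8 averaged 246 TPM over the 52 libraries, and Psmb9 57.8 TPM. At day 7, Psmb8 had 242, 213 and 205 TPM in the Tdt+ libraries, 189.9, 175 and 190.2 TPM in the Tdt- libraries and 238, 194 and 179 TPM in the contralateral libraries. After LPS it had 312, 304, 316 and 289.7 TPM in Tdt+, 322, 294, 340.3 and 205 TPM in Tdt- and 252, 299, 364 and 179 TPM in contralateral libraries. At day 28 without LPS it had 309, 328, 251 and 304 TPM in Tdt+, 276, 347, 311 and 291 TPM in Tdt- and 287, 280.1, 286 and 267 TPM in contralateral libraries. At day 7 the lowest Tdt+ library lay above all Tdt- libraries, while the other pairs overlapped, and the lowest values after LPS were the Tdt- and contralateral libraries numbered 4.

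Psmb9, which takes the place of Psmb6, had the lowest level of the 3. At day 7 it had 51.3, 34.03 and 27.96 TPM in Tdt+, 54.5, 31.1 and 27.6 TPM in Tdt- and 50.1, 54.6 and 30.8 TPM in contralateral libraries. After LPS it had 70.01, 66.4, 80.3 and 76.1 TPM in Tdt+, 72.7, 62.2, 70.04 and 56.2 TPM in Tdt- and 42.4, 63.95, 99.1 and 52.98 TPM in contralateral libraries. At day 28 without LPS it had 68.7, 80.3, 91.1 and 92.2 TPM in Tdt+, 87.6, 67.3, 91.8 and 104 TPM in Tdt- and 72.5, 77.3, 87.6 and 81.8 TPM in contralateral libraries. The groups overlapped within each table.

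Psmb10, the trypsin-like subunit that stands in for Psmb7, had 74.7, 61.5 and 61.3 TPM in Tdt+, 89.9, 76.8 and 89.5 TPM in Tdt- and 60.3, 68.8 and 61.8 TPM in contralateral libraries at day 7. After LPS it had 206, 162, 209 and 165 TPM in Tdt+, 167, 176, 218 and 133 TPM in Tdt- and 163, 166, 185 and 126 TPM in contralateral libraries. At day 28 without LPS it had 117, 123, 116 and 107 TPM in Tdt+, 119, 124, 103 and 130.02 TPM in Tdt- and 122, 117, 113 and 162 TPM in contralateral libraries. The Tdt- libraries of day 7 lay above both other groups of that day, and elsewhere the groups overlapped.

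Psme1, the alpha subunit of PA28, was the member whose level set the LPS libraries apart most plainly to the eye. It had 532, 508, 528 and 582 TPM in Tdt+, 529.9, 533, 610.1 and 502 TPM in Tdt- and 460.2, 472, 576 and 483 TPM in contralateral libraries after LPS. At day 28 without LPS it had 181, 155, 166 and 251 TPM in Tdt+, 223, 232, 242 and 206 TPM in Tdt- and 159.99, 169, 206 and 162 TPM in contralateral libraries, and at day 7 all 9 libraries lay between 183 and 246 TPM. Within a table the groups overlapped.

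Psme2, the beta subunit of PA28, had 468, 437, 513 and 453 TPM in Tdt+, 494, 405, 522 and 286 TPM in Tdt- and 267, 329.7, 431 and 212 TPM in contralateral libraries after LPS. At day 28 without LPS it had 239, 247, 182 and 217 TPM in Tdt+, 206, 239.6, 189.7 and 217 TPM in Tdt- and 209, 238, 292 and 258 TPM in contralateral libraries, and at day 7 the libraries lay between 154 and 253 TPM. After LPS every Tdt+ library lay above every contralateral library, while the Tdt- libraries overlapped both. Psme2b, a near-identical copy listed under its own symbol, had 21.95 to 88.1 TPM over all libraries, and how reads were divided between it and Psme2 is uncertain.

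**Figure D1:**
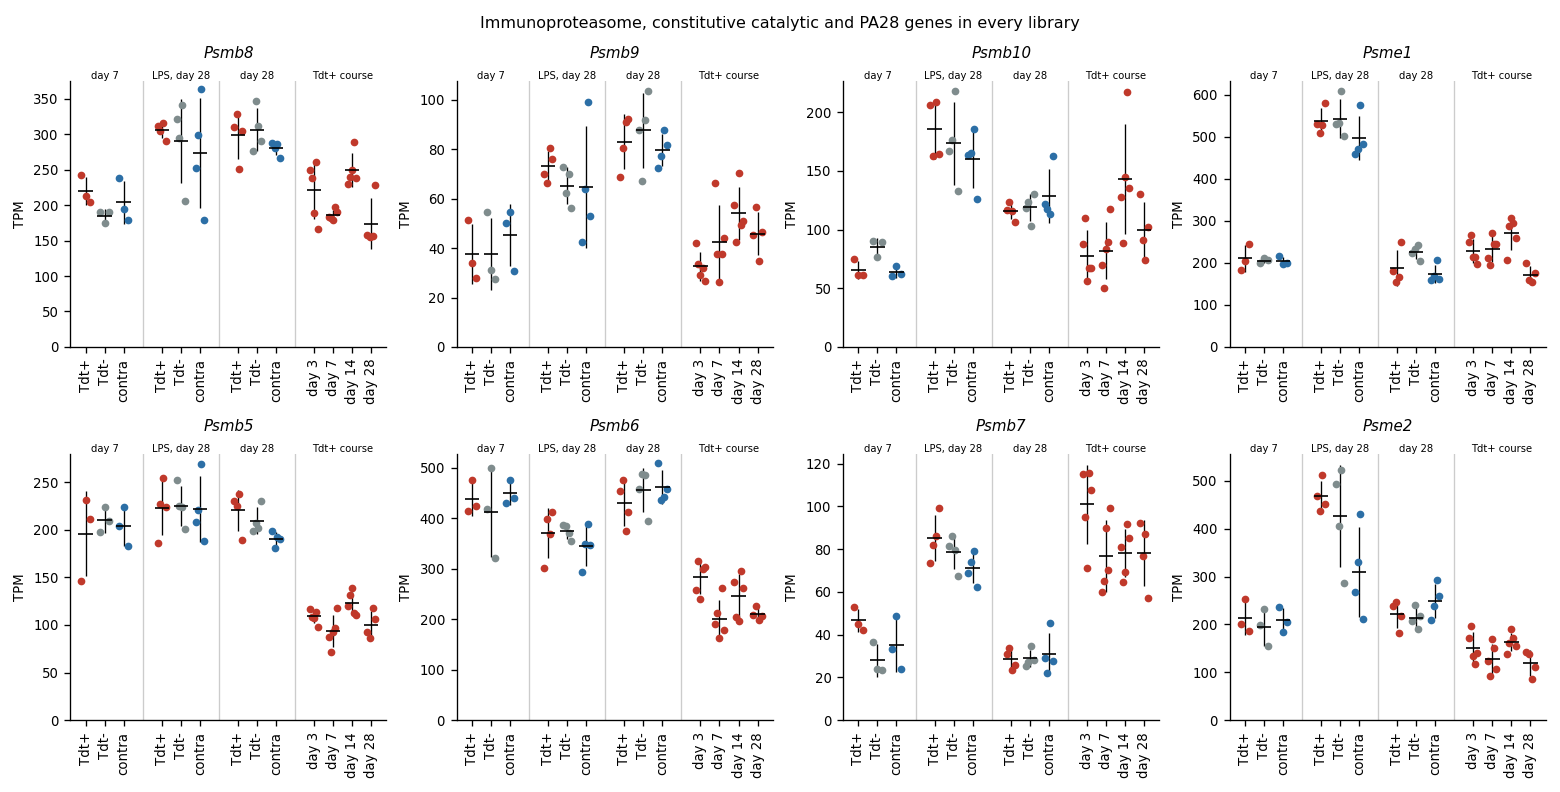
TPM of the 3 immunoproteasome genes, their constitutive counterparts Psmb5, Psmb6 and Psmb7, and Psme1 and Psme2, in every library of the 4 tables, with Tdt+ in red, Tdt- in grey and contralateral in blue (points: libraries; bars: group mean; vertical lines: SD; axes from 0). Psme1 stands between 460.2 and 610.1 TPM in the 12 LPS libraries and between 155 and 250.7 TPM in the 12 libraries of day 28 without LPS, while Psmb8 spans similar levels in both tables.

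The catalytic genes were next set against the constitutive subunits they replace, as log2 ratios within a library, which a common scaling of the library cannot move. Psmb8 over Psmb5, the chymotrypsin-like pair, ran from -0.36 to 0.73 in the day 7 table with a median of -0.059, from -0.074 to 0.75 after LPS with a median of 0.38, from 0.080 to 0.74 at day 28 with a median of 0.54 and from 0.41 to 1.36 in the time course with a median of 0.95. The 2 genes were thus at similar levels at day 7, and Psmb8 was mostly the higher one elsewhere. Psmb9 over Psmb6, the caspase-like site, was below 0 in all 52 libraries, with medians of -3.54 at day 7, -2.44 after LPS, -2.45 at day 28 and -2.49 in the time course. Psmb6 was the highest of the catalytic genes, with 349 TPM on average over the 52 libraries. Psmb10 over Psmb7, the trypsin-like pair, had medians of 0.86 at day 7, 1.10 after LPS, 2.13 at day 28 and 0.24 in the time course. Psmb7 itself ran from 23.3 to 52.8 TPM in the day 7 table, from 62.3 to 99.5 TPM after LPS, from 22.2 to 45.3 TPM at day 28 and from 57.1 to 116 TPM in the time course, so this ratio carries a difference between tables in its denominator.

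Summed over the 6 catalytic beta genes, the share of TPM that came from Psmb8, Psmb9 and Psmb10 was close between the sides of the brain. It was 32.3 ± 4.58% in Tdt+, 32.3 ± 4.35% in Tdt- and 31.2 ± 2.65% in contralateral libraries at day 7 (SD, n = 3 each). After LPS it was 45.5 ± 4.15% in Tdt+, 43.5 ± 3.91% in Tdt- and 43.4 ± 4.12% in contralateral libraries, and at day 28 without LPS 42.3 ± 1.53% in Tdt+, 42.5 ± 1.54% in Tdt- and 41.7 ± 1.57% in contralateral libraries (SD, n = 4 each). Within each of these tables every pair of groups overlapped. In the time course the day 3 share was 40.0 ± 3.78%, that of day 7 45.6 ± 2.25%, that of day 14 49.8 ± 3.07% and that of day 28 44.9 ± 4.51% (SD, n = 5, 5, 5 and 4). Neighbouring times overlapped, while the day 14 libraries (46.6 to 53.4%) lay above all day 3 libraries (33.8 to 43.6%). The share is a description of 6 genes and has no test.

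**Figure D2:**
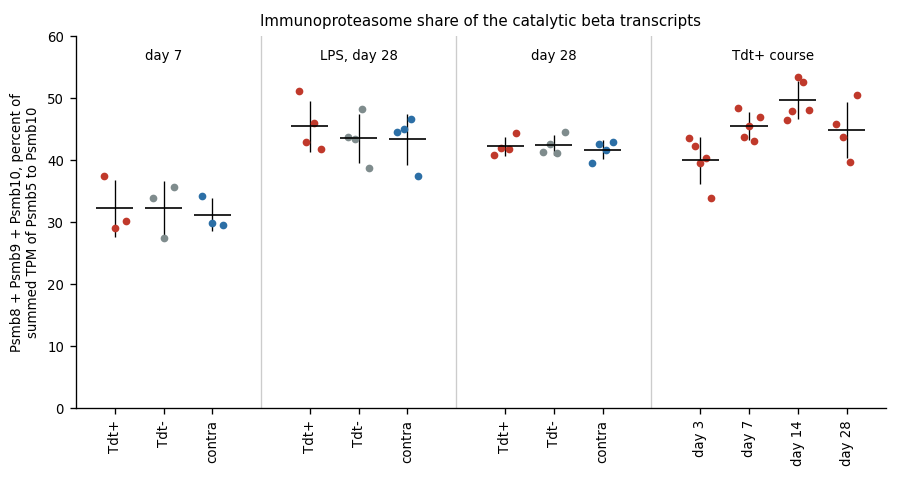
Percent of the summed TPM of the 6 catalytic beta genes that came from Psmb8, Psmb9 and Psmb10, per library and group of the 4 tables (points: libraries; bars: group mean; vertical lines: SD). Day 7 libraries of the side comparison lie between 27.4 and 37.5%, LPS libraries between 37.4 and 51.1%, day 28 libraries between 39.5 and 44.6% and time course libraries between 33.8 and 53.4%.

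No proteasome member passed the test between Tdt+ and contralateral microglia at day 7. The test was limma on log2(TPM + 1) with Benjamini-Hochberg adjustment over all genes at a threshold of 0.05, and folds are on that scale, Tdt+ over contralateral. It called 0 of 47 members, against a background of 0.0712% of the 12637 genes tested, and 2 members had an unadjusted p under 0.05, against 7.18% of all genes. The smallest p was that of Psmc5, an ATPase of the base, with 130.1, 178 and 188 TPM in Tdt+ and 222, 227 and 229 TPM in contralateral libraries. All 3 Tdt+ libraries lay below the contralateral ones (log2 fold -0.47 ± 0.16 SE, adjusted p = 0.559). Psmd5 lay wholly above in Tdt+ libraries, against 5.70% of all genes, and Psma4, Psmc2, Psmc5, Psmd7 and Psmd8 wholly below, against 6.65% of all genes. The 95% intervals of the log2 folds were -0.21 to 0.44 for Psmb8, -0.99 to 0.47 for Psmb9 and -0.33 to 0.42 for Psmb10. The member median was -0.076, against -0.0092 over all genes. Microglial markers summed to 31185 to 34137 TPM in Tdt+ and 39853 to 46599 TPM in contralateral libraries, and their part in these values was not tested. In bulk samples, fewer cells of a type and less RNA per cell cannot be told apart.

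Set against Tdt- microglia of the same injured cortex, the Tdt+ libraries of day 7 again gave 0 of 47 members, with 0.0158% of all genes called. Psmb7, the constitutive trypsin-like subunit, had the smallest p, with 52.8, 45.05 and 42.2 TPM in Tdt+ and 36.8, 24.01 and 23.3 TPM in Tdt- libraries. The groups did not overlap (log2 fold 0.74 ± 0.29 SE, adjusted p = 0.886). Psmb8 and Psmd6 also lay wholly above in Tdt+ libraries (background 4.05%), and Psmb2, Psmb10 and Psme4 wholly below (background 7.11%). Between Tdt- and contralateral libraries of day 7 no member passed either, with 0.00791% of all genes called, and the smallest p was that of the alpha ring gene Psma4 (log2 fold -0.50 ± 0.19 SE, adjusted p = 0.872).

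At day 28 without LPS the 3 groups did not differ in any member by the same test, nor in any of the 12710 genes tested, so the background was 0% in each of the 3 comparisons. At an unadjusted p under 0.05, 585 genes (4.60%) and 0 members were counted between Tdt+ and contralateral libraries, 473 genes (3.72%) and 0 members between Tdt+ and Tdt-, and 575 genes (4.52%) and 3 members between Tdt- and contralateral. The member nearest to a call between Tdt+ and contralateral was Psmb2, a non-catalytic beta subunit, with 253, 264, 210.3 and 211 TPM in Tdt+ and 283, 284, 275 and 270.3 TPM in contralateral libraries. Every Tdt+ value was the lower one (log2 fold -0.25 ± 0.13 SE, adjusted p = 0.991). The 95% intervals of the log2 folds were -0.15 to 0.32 for Psmb8, -0.28 to 0.38 for Psmb9, -0.43 to 0.15 for Psmb10, -0.21 to 0.40 for Psme1 and -0.45 to 0.11 for Psme2. Psme1 was the member with the smallest p in both other comparisons, at -0.28 ± 0.14 SE in Tdt+ over Tdt- and 0.38 ± 0.14 SE in Tdt- over contralateral (adjusted p = 0.999 and 0.987).

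After LPS most members had a higher mean log2 level in Tdt+ than in contralateral microglia, and none passed the test that leaves the pairing of libraries aside. It called 0 of 47 members, against a background of 1.35% of 13397 genes (0.896% higher and 0.455% lower). Of the 47 members, 40 had a log2 fold above 0 and their median was 0.15, while over all genes 4691 were above 0 and 8706 below, with a median of -0.12. By role, 14 of 14 constitutive core genes, 16 of 17 genes of the 19S particle and 5 of 5 genes of the immunoproteasome and PA28 were above 0, and the counts above 0 were 14, 17 and 5 with TMM scaling. An unadjusted p under 0.05 was reached by 7 members, all higher, against 11.5% of all genes.

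Libraries of the same number deviated together in Tdt+ and contralateral LPS cells, so the number was also used as a block. With the replicate block 6 members were higher in Tdt+ libraries, against a background of 2.41% of genes called higher and 4.53% called lower. Psmc1, a base ATPase, had 238, 196, 212 and 221 TPM in Tdt+ and 171, 154, 173 and 149.8 TPM in contralateral libraries. The groups did not overlap, and the log2 fold was 0.42 ± 0.077 SE with adjusted p = 0.00786 with the block and 0.122 without it. Psme2, whose values stand above, had a log2 fold of 0.64 ± 0.14 SE with the block, with adjusted p = 0.0192, and 0.252 without it. Psmd14, the deubiquitinase of the lid, had 143, 139, 156 and 182 TPM in Tdt+ and 105, 119, 125 and 131 TPM in contralateral libraries. All Tdt+ values were higher (log2 fold 0.37 ± 0.10 SE, adjusted p = 0.0487 with the block).

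The other 3 members called with the block were core subunits. The alpha ring gene Psma7 had 347, 337, 389 and 338 TPM in Tdt+ and 302, 251, 337 and 233 TPM in contralateral libraries, with no overlap between the groups (adjusted p = 0.0340 with the block). Psmb4, a non-catalytic beta gene, had 169.6, 176, 243 and 233 TPM in Tdt+ and 137, 131, 152 and 162 TPM in contralateral libraries, again with no overlap (adjusted p = 0.0494 with the block). Psma6, an alpha ring gene, had 249, 257, 291 and 319 TPM in Tdt+ and 226, 186, 231 and 255 TPM in contralateral libraries, which overlapped, while each Tdt+ library was higher than the contralateral library of its number (adjusted p = 0.0426 with the block). In all, 6 members lay wholly above in Tdt+ libraries (Psma7, Psmb4, Psmc1, Psmd10, Psmd14 and Psme2), against 2.30% of all genes.

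The immunoproteasome genes themselves were not called after LPS with or without the block. Without the block their log2 folds, Tdt+ over contralateral, were 0.21 ± 0.21 SE for Psmb8 (95% interval -0.24 to 0.65), 0.25 ± 0.21 SE for Psmb9 (-0.22 to 0.71) and 0.21 ± 0.17 SE for Psmb10 (-0.15 to 0.58). Psme1 stood at 0.11 ± 0.11 SE (-0.12 to 0.35). Microglial markers summed to 17216 to 26279 TPM in Tdt+ and 25773 to 35009 TPM in contralateral libraries, and 2 of the 10, P2ry12 (-1.07 ± 0.19 SE, adjusted p = 0.0135) and Fcrls (-0.84 ± 0.19 SE, adjusted p = 0.0472), fell. Monocyte markers summed to 77.5 to 209.5 TPM in Tdt+ and 42.5 to 100.5 TPM in contralateral libraries, mostly from Fn1. Of 19 interferon-responsive genes, Rsad2 (2.16 ± 0.45 SE, adjusted p = 0.0340) and Gbp2 (1.82 ± 0.39 SE, adjusted p = 0.0429) rose, while none of 12 genes of MHC class I peptide supply, 17 tested genes of protein degradation or 7 ubiquitin genes passed. These marker and list calls are from the test without the block, which called 1.35% of all genes. They were not read with the block, which called 2.41% of genes higher and 4.53% lower. The part of these markers in the members' values was not tested. Without the 3 LPS libraries numbered 4, the test without the block again called 0 members, and the log2 fold of Psme2 was 0.49. The calls made with the block were not refitted without these libraries.

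**Figure D3:**
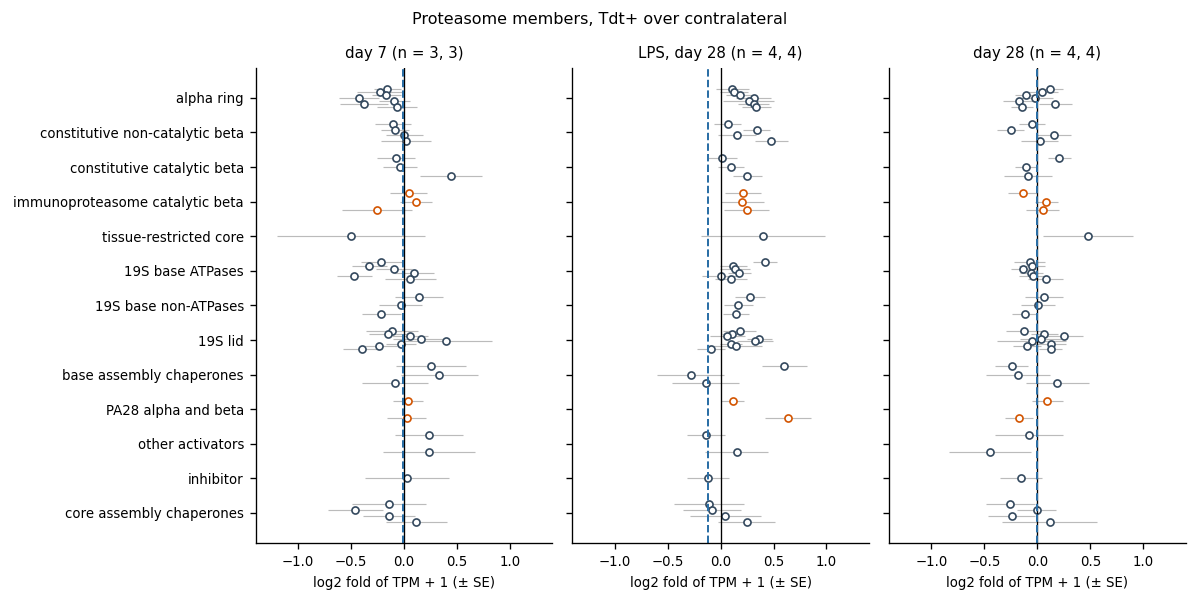
Log2 fold of the 47 tested members, Tdt+ over contralateral, at day 7, at day 28 after LPS and at day 28, grouped by role (points: fold on the log2(TPM + 1) scale; horizontal lines: SE; orange: immunoproteasome and PA28; dashed line: median of all genes tested). No member passed the limma test without the block in any panel, and after LPS 40 of 47 points lie above 0 while the median of all genes is -0.12.

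Tdt- microglia of the injured cortex stood between the other LPS groups for several of these members. Between Tdt+ and Tdt- libraries 0 of 47 members and 0 of 13397 genes passed (0%; 4.61% had an unadjusted p under 0.05). With the replicate block, 0 members and 0.463% of genes passed. Psmd14 alone lay wholly above in Tdt+ libraries, against 1.34% of genes, with 138, 129, 126 and 128 TPM in the Tdt- libraries. Between Tdt- and contralateral libraries 0 members passed without the block (0.0149% of genes). The smallest p there was that of Psmc1 (log2 fold 0.31 ± 0.11 SE, adjusted p = 0.816), with 229, 185, 199 and 191 TPM in the Tdt- libraries. Whether the Tdt+ over contralateral fold differed between LPS and no LPS was tested as an interaction over both day 28 tables. Without the block no member passed, against 0.555% of 14602 genes, and the largest differences among members with an unadjusted p under 0.05 were 0.84 for the base chaperone Psmd10 and 0.81 for Psme2 (adjusted p = 0.208 and 0.275). With the replicate block 3 members passed, all with a higher Tdt+ over contralateral fold after LPS, against 1.01% of genes higher and 1.45% lower. They were Psme2 (adjusted p = 0.0374), Psma7 (a difference of 0.48, adjusted p = 0.0389) and Psmd10 (adjusted p = 0.0475). Deviations of same-numbered libraries of the day 28 table without LPS did not all correlate above 0.1. The interactions of the Tdt+ over Tdt- and Tdt- over contralateral folds also gave 0 members, against 0% and 0.0205% of genes without the block, and that of the Tdt+ over Tdt- fold gave 0 with it, against 0.0274%.

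The LPS libraries could be set beside the other day 28 libraries only across separately deposited tables, so these values are a description with no test. LPS and table cannot be told apart. Of the 47 members, 4 had all 12 LPS libraries above all 16 other day 28 libraries, against 3.44% of 15557 genes, and 0 lay wholly below, against 2.08% of genes. Psme1 had 460.2 to 610.1 TPM after LPS, against 155 to 250.7 TPM in the day 28 table and 154 to 199 TPM in the day 28 libraries of the time course. The alpha ring gene Psma6 had 186 to 326 TPM after LPS, against 108 to 184 and 66.6 to 116 TPM. The remaining 2, Psmd14 and the lid subunit Psmd3, had 105 to 182 and 82.3 to 133 TPM after LPS, against 55.6 to 104 and 18.5 to 67.8 TPM in the day 28 table. Tables of the same day without LPS differed too. Psmb7 had 22.2 to 45.3 TPM in the day 28 table, with 23.6 to 33.5 TPM in its Tdt+ libraries. In the day 28 libraries of the time course, all Tdt+, Psmb7 had 57.1 to 92.2 TPM.

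Relative to the alpha ring of the same library, the step in Psme1 between the side tables remained. The log2 ratio of Psme1 to the geometric mean of the 7 alpha ring genes was 1.04 to 1.504 in the LPS libraries, -0.26 to 0.56 in the day 28 table and -0.095 to 0.44 in the day 7 table, while the time course, without LPS, ran from 0.60 to 1.39 and overlapped the LPS libraries. For Psme2 the ratio was 0.32 to 1.22 after LPS, -0.062 to 0.68 at day 28, -0.15 to 0.47 at day 7 and -0.25 to 0.66 in the time course. Among the day 28 libraries of the time course the Psme1 ratio was 0.60 to 0.98, below all LPS libraries, and the Psme2 ratio -0.25 to 0.51, which overlapped them. The overlap in the Psme1 ratio thus came from days 3, 7 and 14.

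**Figure D4:**
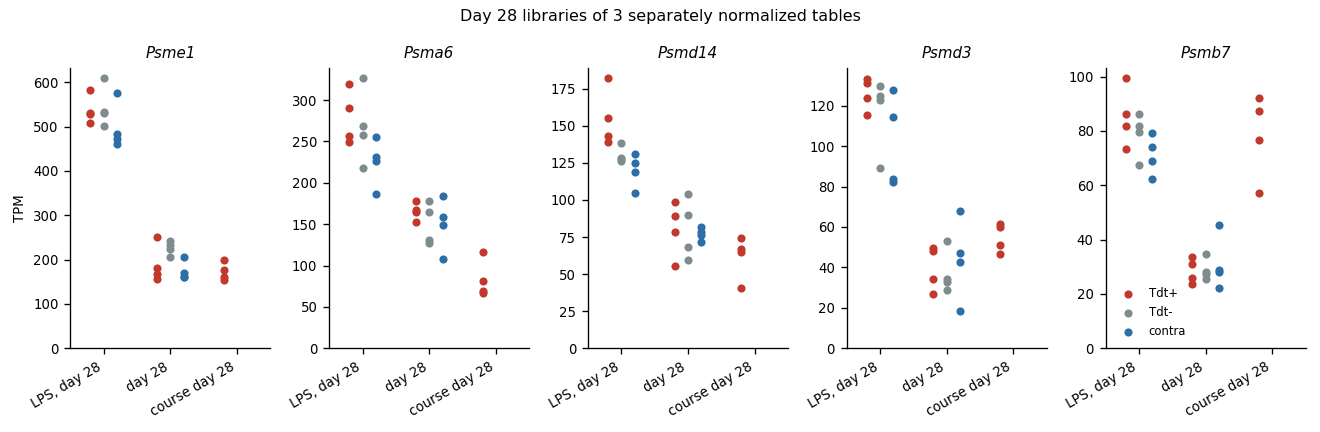
TPM of Psme1, Psma6, Psmd14, Psmd3 and Psmb7 in each day 28 library of the LPS table, the day 28 table and the time course (points: libraries; axes from 0). The first 4 genes are those whose 12 LPS libraries lie above all 16 others, and Psmb7 is shown because its 2 sets of libraries without LPS, 22.2 to 45.3 and 57.1 to 92.2 TPM, do not overlap.

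Along the time course 4 constitutive core genes fell between day 3 and day 7, and Psmb8, Psme1 and Psmc4 fell between day 14 and day 28. From day 3 to day 7, 4 of 47 members passed, all lower at day 7, against a background of 4.42% of 15316 genes lower and 9.93% higher. With TMM scaling the count was 9 lower and 0 higher, against 7.42% lower and 5.36% higher. All 4 were beta or alpha ring genes, and 14 of 14 constitutive core genes had a log2 fold below 0, also with TMM scaling. Psmb6, the constitutive caspase-like subunit, had 191, 212, 163, 261 and 178 TPM at day 7 and 257, 315, 241, 300.1 and 304 TPM at day 3. The times overlapped in 1 day 7 library (log2 fold -0.50 ± 0.13 SE, adjusted p = 0.0130). Psmb1, a non-catalytic beta gene, had 103, 98.5, 106, 101 and 102 TPM at day 7 and 134, 136, 139.8, 144 and 113 TPM at day 3, with no overlap (log2 fold -0.38 ± 0.13 SE, adjusted p = 0.0487). The other 2 were Psma7, with a log2 fold of -0.44 ± 0.11 SE, and Psmb4, with -0.57 ± 0.18 SE (adjusted p = 0.00947 and 0.0364). Psmb6 and Psma7 passed without each of the 10 libraries in turn. The call of Psmb1 was lost in 9 of these 10 repeats (all but that without the day 3 library numbered 5; adjusted p 0.0604 to 0.114) and that of Psmb4 in 8 (all but those without the day 3 library numbered 5 and the day 7 library numbered 4; 0.0593 to 0.0934).

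Psmb8 had 249, 238, 189, 260.1 and 167 TPM in the day 3 libraries, 183, 182, 179, 197 and 189.9 TPM in those of day 7, 229.9, 239.9, 249, 289.5 and 238 TPM in those of day 14 and 158, 154, 156 and 228 TPM in those of day 28. The day 14 libraries lay above all day 7 and day 28 libraries. Psmb9 had 41.9, 33.4, 29.3, 31.9 and 26.5 TPM in the day 3 libraries, 66.5, 37.5, 26.5, 37.8 and 43.9 TPM in those of day 7, 57.4, 42.3, 70.4, 49.4 and 50.9 TPM in those of day 14 and 45.2, 56.6, 34.97 and 46.7 TPM in those of day 28. Its neighbouring times overlapped, while its day 14 libraries lay above all those of day 3. Psmb10 had 88.00, 110.2, 56.3, 67.2 and 67.5 TPM in the day 3 libraries, 69.9, 50.6, 83.3, 89.8 and 117 TPM in those of day 7, 127, 88.7, 145, 217 and 135 TPM in those of day 14 and 130.5, 91.5, 74.5 and 102 TPM in those of day 28. Its day 14 libraries spread most, with 1 at 217 TPM, and overlapped both neighbours.

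Psme1 had 249, 267, 215, 214 and 198 TPM in the day 3 libraries, 211, 194, 272, 245 and 244 TPM in those of day 7, 206, 287, 307, 294 and 261 TPM in those of day 14 and 199, 160.1, 154 and 175 TPM in those of day 28. Every day 28 library lay below every day 14 library. Psme2 had 171, 196, 133, 117 and 141 TPM in the day 3 libraries, 124, 92.5, 169, 151 and 106 TPM in those of day 7, 138, 162, 190.1, 172 and 155 TPM in those of day 14 and 143, 138, 85.3 and 111 TPM in those of day 28. Its neighbouring times overlapped.

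Between day 14 and day 7 the test called 1 of 47 members, against 4.46% of genes higher and 1.54% lower. It was the alpha ring gene Psma3, with 219.7, 187, 241, 244 and 215 TPM at day 14 and 155, 184, 173, 162 and 183 TPM at day 7. The times did not overlap (log2 fold 0.36 ± 0.10 SE, adjusted p = 0.0315), but with TMM scaling or quantile normalization no member passed, against 4.35% and 4.47% of genes. Its call was also lost in 7 of 10 repeats without 1 library, those of day 14 numbered 1, 3, 4 and 5 and of day 7 numbered 1, 3 and 4 (adjusted p 0.0561 to 0.0811). Psmb8 and Psmb10 missed the threshold, with log2 folds of 0.42 ± 0.13 and 0.78 ± 0.23 SE (adjusted p = 0.0593 and 0.0513). The log2 folds of Psmb9, Psme1 and Psme2 were 0.38, 0.21 and 0.37. All 5 of these were above 0, also with TMM scaling, with a median of 0.38, against 0.21 over all members and 0.14 over all genes. Of the 19S particle 17 of 17 genes were above 0, but 12 of 17 with TMM scaling.

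Between day 28 and day 14, 3 of 47 members fell and 0 rose, against 2.21% of genes lower and 4.06% higher. Psme1 averaged 172 ± 20.00 TPM at day 28 and 271 ± 40.03 TPM at day 14 (SD, n = 4 and 5), a log2 fold of -0.65 ± 0.13 SE with adjusted p = 0.00595. Psmb8 averaged 174 ± 35.9 TPM at day 28 and 249 ± 23.5 TPM at day 14, a log2 fold of -0.53 ± 0.14 SE with adjusted p = 0.0235. This call was lost without the day 14 library numbered 4 and without each of the day 28 libraries numbered 1, 2 and 3, where the fold was -0.49 to -0.48 and adjusted p 0.0588 to 0.0784. Psmc4, an ATPase of the base, had 81.2, 77.2, 67.1 and 52.7 TPM at day 28 and 123, 85.04, 84.4, 102 and 100.3 TPM at day 14, with no overlap (log2 fold -0.51 ± 0.15 SE, adjusted p = 0.0410). Its call was lost without the day 28 libraries numbered 2, 3 and 4 and the day 14 libraries numbered 1, 4 and 5, each in turn (adjusted p 0.0557 to 0.127), while Psme1 passed in all 9 repeats. Psme2 (-0.47 ± 0.19 SE, adjusted p = 0.140), Psmb10 (-0.49 ± 0.25 SE, 0.261) and Psmb9 (-0.23 ± 0.22 SE, 0.574) did not pass. The 5 genes of the immunoproteasome and PA28 were all below 0, also with TMM scaling, with a median of -0.49, against -0.16 over all members and 0.18 over all genes.

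Over the whole course, day 28 against day 3, 5 members were higher and 7 lower, against 35.6% of all genes higher and 7.97% lower. The median log2 fold of all genes was 0.56, that of the members -0.013. With TMM scaling, under which the median of all genes was 0.093, the members gave 0 higher and 28 lower (12.1% of all genes higher and 14.6% lower), and with quantile normalization 0 higher and 23 lower (13.2% of all genes higher and 13.2% lower). The 7 lower members kept their sign under both scalings. Psmb1 averaged 71.5 ± 5.06 TPM at day 28 and 133 ± 12.2 TPM at day 3 (SD, n = 4 and 5), a log2 fold of -0.89 ± 0.13 SE with adjusted p = 2.36e-05. Psmb4 averaged 73.4 ± 10.4 TPM at day 28 and 135 ± 25.3 TPM at day 3 (-0.86 ± 0.19 SE, adjusted p = 0.00110). The other 5 were the alpha ring genes Psma5 (-0.61) and Psma7 (-0.50), Psmb6 (-0.42), Psme1 (-0.41) and Psmb8 (-0.34), with adjusted p between 0.00171 and 0.0481. Without 1 library at a time, Psmb1, Psmb4, Psma5 and Psma7 passed in all 9 repeats. The call of Psmb8 was lost without the day 28 libraries numbered 1, 2 and 3 and the day 3 libraries numbered 1, 2 and 4 (adjusted p 0.0957 to 0.129), and those of Psmb6 and Psme1 without the day 28 library numbered 3 (0.0510 and 0.0581).

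The 5 members called higher at day 28 than at day 3 were the lid genes Psmd13 (0.55), Psmd7 (0.51) and Psmd6 (0.39), the base chaperone Psmd5 (0.80) and the inhibitor Psmf1 (0.62). Each of these calls was lost without at least 1 library: Psmd13 without the day 28 library numbered 1, Psmd7 without the day 3 library numbered 1, Psmd6 without the day 28 libraries numbered 3 and 4 and the day 3 library numbered 5, Psmd5 without the day 28 library numbered 1 and the day 3 libraries numbered 1 and 3, and Psmf1 without the day 28 libraries numbered 1 and 3 and the day 3 libraries numbered 1, 4 and 5 (adjusted p 0.0512 to 0.175). Psmd13, Psmd7 and Psmd6 were below the all-gene median of 0.56, and with TMM scaling their log2 folds were -0.037, -0.065 and -0.20. Psmd5 and Psmf1 stayed above 0 with TMM scaling, at 0.25 and 0.049, without passing. Psmb9 (0.48 ± 0.22 SE, adjusted p = 0.0799) and Psmb10 (0.36 ± 0.25 SE) did not pass and were below 0 with TMM scaling, as were all 5 genes of the immunoproteasome and PA28. The 10 most abundant genes took a median of 24.2% of all TPM in the day 3 libraries, 22.4% in those of day 7, 20.3% in those of day 14 and 23.7% in the day 28 libraries. Microglial markers summed to 31387 to 42590 TPM at the later times and 17805 to 21626 TPM at day 3, and border macrophage markers to 8.38 to 36.2 TPM at the later times and 129 to 179.99 TPM at day 3. Monocyte markers summed to 1.52 to 70.1 TPM at the later times and 14.15 to 409.9 TPM at day 3, with a day 3 median of 32.2 TPM. Erythroid markers reached 406 TPM at day 14, where their median was 4.69 TPM. Their part in the changes of the members was not tested.

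**Figure D5:**
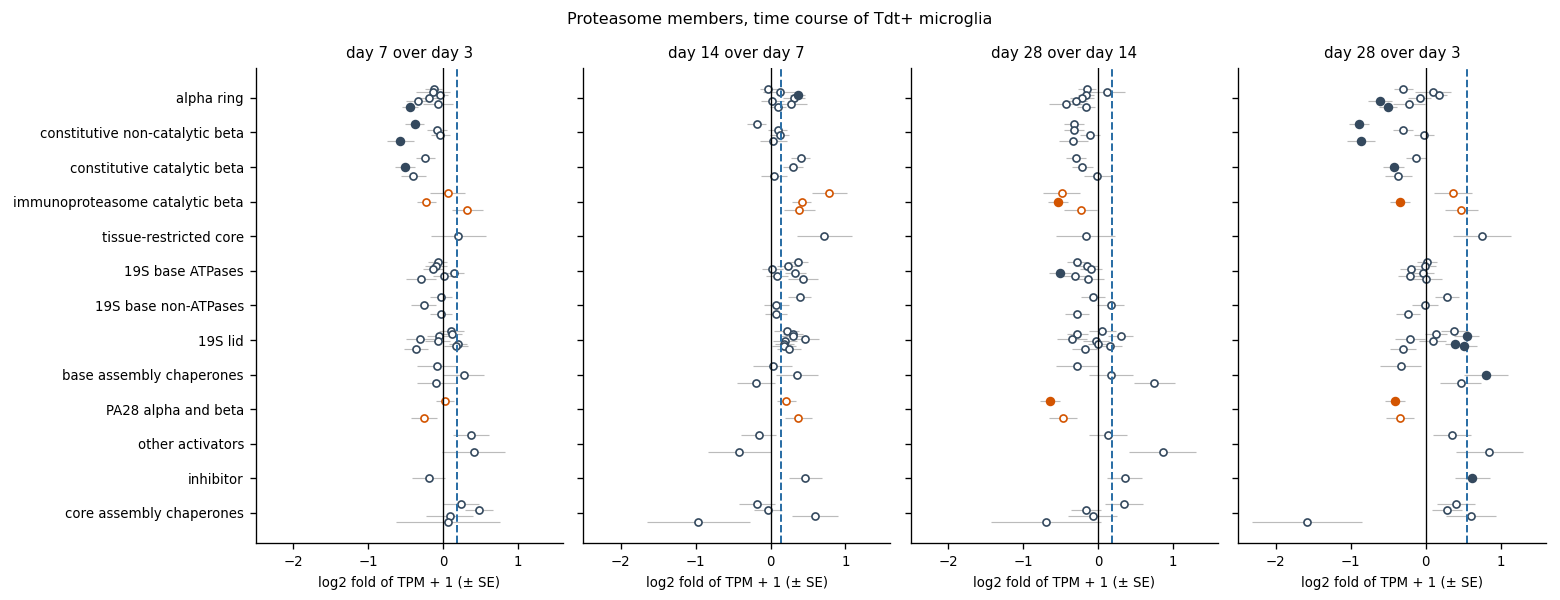
Log2 fold of the 47 tested members in the Tdt+ time course for day 7 over day 3, day 14 over day 7, day 28 over day 14 and day 28 over day 3, grouped by role (points: fold on the log2(TPM + 1) scale, filled where the limma test passed; horizontal lines: SE; orange: immunoproteasome and PA28; dashed line: median of all genes tested). The 5 orange points lie above 0 for day 14 over day 7 and below 0 for day 28 over day 14, and the all-gene median of 0.56 for day 28 over day 3 stands right of most members.

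Genes around the proteasome were read along the same course against the share of all genes called. That share was 9.93% higher and 4.42% lower for day 7 over day 3, 4.46% and 1.54% for day 14 over day 7, 4.06% and 2.21% for day 28 over day 14, and 35.6% and 7.97% for day 28 over day 3. Of 19 interferon-responsive genes, 3 rose and 0 fell between day 3 and day 7, among them Irf1, a regulator of immunoproteasome genes (0.72 ± 0.15 SE, adjusted p = 0.00228). At day 14 over day 7, 15 of 19 rose, among them Ifit3, a classical interferon target (2.72 ± 0.33 SE, adjusted p = 4.36e-05). At day 28 over day 14, 14 of 19 fell, and day 28 over day 3 gave 4 higher and 5 lower. The median of the list was 1.12 at day 14 over day 7 and -1.33 at day 28 over day 14, against 0.14 and 0.18 over all genes.

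Of 12 genes of peptide supply to MHC class I, 3 rose between day 3 and day 7, and 4 rose between day 7 and day 14. The last 4 were Tap1 (0.64 ± 0.15 SE, adjusted p = 0.0135), the transporter gene between Psmb9 and Psmb8, and Tap2, Tapbp and Pdia3, of the peptide loading complex. At day 28 over day 14, 4 fell, namely Tap1 (-0.94 ± 0.16 SE, adjusted p = 0.00159), the heavy chains H2-D1 and H2-K1, and B2m, their light chain. Day 28 over day 3 gave 3 of 12 higher, a smaller share than the 35.6% of all genes, and 0 lower. The lists share several interferon targets and were described by counts only.

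Of 20 other proteasome and degradation genes, 17 were tested. Between day 3 and day 7, 2 rose (Akirin2, a factor for nuclear import of proteasomes, and the shuttle factor Ubqln1) and 1 fell (Sem1, a small lid subunit outside the symbol rule). None passed between day 7 and day 14, and 1 rose between day 14 and day 28 (Ecpas, a proteasome adaptor). At day 28 over day 3, 7 of 17 were higher, a share near the 35.6% of all genes. With TMM scaling 12.1% of all genes were higher, and this list was not counted. Among the 7 were Nfe2l1, the transcription factor that restores proteasome synthesis (1.26 ± 0.36 SE, adjusted p = 0.00776), and Ddi2, the protease that activates it (1.22 ± 0.22 SE, adjusted p = 0.000157). Sem1 was lower (-1.08 ± 0.15 SE, adjusted p = 6.3e-06). Of 7 ubiquitin genes, 0 rose and 1 fell between day 3 and day 7, 2 rose and 2 fell between day 7 and day 14, 0 rose and 2 fell between day 14 and day 28, and 2 rose and 3 fell over the whole course, where 35.6% of all genes were higher and 7.97% lower. In the comparisons between sides and labels of day 7 and of day 28 without LPS, none of these 4 lists had a gene that passed.

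The genes whose pattern was most like that of the immunoproteasome were sought among 7910 genes of at least 10 TPM on average, by Pearson correlation with the mean of Psmb8, Psmb9 and Psmb10 over the 52 libraries, each gene centred within its table. Leaving out members, those given here were Ly6e (0.699), Limd2 (0.675), Igtp (0.668) and Rer1 (0.652), from the 5 with the highest correlation. Among members outside the 3, Psme2 and Psma3 came first, at 0.532 each, and Psmb5 had 0.379. The libraries share groups and library scaling, so these are descriptions with no test.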

How the data were processed

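Bulk RNA-seq of sorted mouse microglia was used (52 of 60 samples listed). Samples of other assays, 6 for ATAC and 2 for single cells, were not used here. The authors deposited TPM per gene in 4 tables. Per the submitters' processing notes, cutadapt 2.10, STAR 2.7.5c and RSEM 1.3.3 were used with GRCm38, with no role given for each. The TPM values keep no depth. Of the columns, 7 matched no listed sample and were not used, and contralateral samples were read from the columns of Tdt- cells, which is a choice made here.

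TPM were analysed as log2(TPM + 1) with limma 3.58.1 (limma-trend, R 4.3.3), with all groups of a table in 1 fit. A gene was tested where the number of libraries with at least 1 TPM reached the size of the smallest group. The p-values were adjusted by Benjamini-Hochberg over all genes tested, with a threshold of 0.05. The fit without the block, TMM scaling or quantile normalization was tested first on simulated data with independent libraries. The fits with these 3 options were not tried on simulated data. TMM factors were computed on the TPM values. Other steps used Python 3.11.15, pandas 2.3.3, numpy 2.4.6 and matplotlib 3.10.9. Alternatives were a pseudocount of 0.1, no filter, a minimum of 10 TPM, quantile normalization, TMM scaling, the compared groups alone, the replicate number as a block, leaving out each library, and, chosen after seeing the data, leaving out the LPS libraries numbered 4.

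The labels number replicates in each group. Deviations of same-numbered LPS libraries correlated at 0.194 to 0.551 between Tdt+ and contralateral and at 0.123 to 0.524 between Tdt+ and Tdt- libraries, above 0.1 in every pair, so these were treated as paired. Those of the other comparisons were not all above 0.1 and were not treated as paired, though some same-numbered libraries there also deviated together. Those of LPS Tdt- and contralateral libraries correlated at 0.0741 to 0.563 (median 0.252).

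Genes named with values in every library were Psmb8, Psmb9, Psmb10, Psme1 and Psme2. Constitutive counterparts were given by range. Further names were members that passed, or the member with the smallest p, the highest and lowest of a role, and the 5 genes most like the immunoproteasome, of which 1 is not reported here. Members lying wholly above or below a group were named after their values were seen. The members, the 4 pathway lists and the 12 marker lists were chosen with earlier results of these data known.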

Additional observations from a re-analysis of the deposited data

Results flagged for a closer look

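Psmb8, the chymotrypsin-like subunit of the immunoproteasome, had 1 library far from the others in the time course at day 28. Replicate 4 had 228 TPM, while the nearest of the other 3 libraries had 158 TPM, and that gap was 0.958 of the range of the group. Of 90 checks, each of a gene or the share in a group of 4 or 5 libraries, 1 stood apart, while chance gives about 1 in 20. The checks use the same libraries and are not independent.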

How the results depend on the processing

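The count of members passed was 0 in each comparison between sides and labels, and in each interaction, without every library in turn (0 to 0), and the exceptions among the other settings were LPS Tdt+ over contralateral, with 1 under TMM scaling and 6 with the replicate block, and its interaction, with 3 with the block (Psme2, Psma7 and Psmd10). In the time course, day 7 over day 3 gave 2 with no filter, 9 with TMM scaling and 2 to 4 leaving out single libraries. Day 14 over day 7 gave 4 with a minimum of 10 TPM, 0 with quantile normalization, 0 with TMM scaling, 2 with the replicate block and 0 to 3 leaving out single libraries. Day 28 over day 14 gave 5 with TMM scaling, 1 with the compared groups alone and 1 to 3 leaving out single libraries. Day 28 over day 3 gave 23 with quantile normalization, 28 with TMM scaling and 9 to 13 leaving out single libraries. In the time course, day 7 and day 28 tables same-numbered libraries did not all correlate above 0.1 (down to -0.0314, 0.0328 and -0.00835). The block changed no other count there by more than 1.5 times. At day 7, Tdt+ and contralateral libraries of the same number correlated at 0.0824 to 0.132, and those of different numbers at -0.0994 to 0.0188. With the block this comparison still gave 0 members, against 0.214% of genes. The log2 folds that changed sign were those of Psmd6 (-0.20), Psmd7 (-0.065), Psmd13 (-0.037), Psmb9 (-0.098) and Psmb10 (-0.22) for day 28 over day 3 with TMM scaling, of Psmb9 (-0.031) and Psmb10 (-0.010) there with quantile normalization, and 6 small ones of Tdt+ over contralateral leaving out single libraries, whose range at day 7 was -0.10 to 0.12 for Psme2 (with a second sign change at -0.056), -0.047 to 0.10 for Psmb10 and -0.076 to 0.14 for Psme1, and at day 28 -0.00143 to 0.14 for Psmb9 and -0.051 to 0.18 for Psme1. The cause was not tested. Over all named members, 930 repeats kept the sign and side of the threshold of the fold, 78 lost a call, 21 gained one and 13 changed sign. The difference between groups in the share of the immunoproteasome moved by less than the pooled SD in 104 of 104 repeats. Leaving out 1 library from groups of these sizes cannot move it further, so this count does not show that the difference is stable. Without the LPS libraries numbered 4, 0 members passed in the test without the block. The calls made with the block were not repeated without these or any single library. TPM keep no depth, so the counting error of low members such as Psme3, Psme4 and Psmb11 is unknown.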
